A study of Rattus norvegicus with 6 samples.

Results

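Exonic circular RNAs (circRNAs) whose 2 junction ends lie 50000 bases or more apart on the chromosome were examined in injured and sham-operated rat spinal cord. The members were all table entries classed as exonic with that span, which gave 626 of the 11061 circRNAs and 8.99% of the 6967 exonic ones. The choice used the table's class and coordinates, and no read count. The study sequenced circRNAs in spinal cords of Wistar rats aged 8 weeks. The SCI group was 3 libraries from rats whose cord was cut through, a transection that the design text calls complete although the series title can be read as incomplete. The sham group was 3 libraries from rats whose vertebral arch was opened (laminectomy) and whose cord was left uninjured. All 6 share the strain, age and tissue. The labels and design text give neither the interval from surgery to collection nor any step that removed linear RNA. Nothing in the labels ties 1 library to 1 rat, so the p-values below reflect the spread among these libraries, which may be technical.

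A circRNA forms when the splicing machinery joins the end of a downstream exon back to the start of an upstream exon, and only reads across that back-splice junction count towards it. The introns between the exons are usually spliced out of the circle, so a wide genomic span does not by itself mean a long RNA. circRNAs lack free ends, are resistant to exonucleases, and are abundant in nervous tissue, where many come from genes with long introns that encode synaptic and adhesion proteins. Levels below are back-splice reads per 10000 back-splice reads of the library, and changes are log2 ratios of SCI over sham. In pieces of whole cord, fewer cells of a type and less RNA per cell cannot be told apart.

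The libraries held 21255, 20847 and 19603 back-splice reads in SCI, against 11631, 9805 and 12722 in sham, so 1 read was worth 0.470, 0.480 and 0.510 per 10000 in SCI and 0.860, 1.02 and 0.786 per 10000 in sham. Each entry of the table reached at least 2 reads in some library. Sham library 3 stood apart: of the members read in 1 library alone, 15 of its 27 had 5 or more reads (55.6%), against 3 of 83, 4 of 92 and 1 of 61 in the SCI libraries, 5 of 49 in sham library 1 and 0 of 33 in sham library 2. The same held for shorter exonic circRNAs, with 38.0% in sham library 3, 15.9% in sham library 1 and 3.23% to 4.83% in the other libraries. How far this pattern bears on each result below was not tested; values without sham library 3 are given for the shares, the numbers of members seen and some single ratios. Neuron markers were present: 4 of 5 marker genes had circRNAs of some span, and the remaining one, Rbfox3, had none. Their level was 22.1, 27.3 and 34.2 reads per 10000 in SCI, against 14.6, 25.5 and 33.0 in sham. Most of those reads came from Rims2, itself a host of members. Of 47, 57 and 67 marker reads in SCI, its long circRNAs held 28, 40 and 49 and its other ones 15, 8 and 13. Of 17, 25 and 42 in sham, they held 8, 16 and 19 and 8, 5 and 14. Of the 5 oligodendrocyte markers 4 had circRNAs, at 20.4 to 25.9 reads per 10000 in SCI and 15.5 to 19.4 in sham, and none of the 5 microglia and macrophage markers (Csf1r, Cx3cr1, Ptprc, Itgam and Inpp5d) had a read in any library. Oligodendrocyte precursor markers (2 of 4 with circRNAs) lay at 0 to 1.53 per 10000 in SCI, against 3.06 to 3.44 in sham. These were only 0, 0 and 3 reads in SCI, against 4, 3 and 4 in sham, too few to compare the groups. Endothelial markers (1 of 4) lay at 0.941 to 2.88 in SCI, against 1.02 to 7.86 in sham. Their reads were 2, 6 and 4 in SCI, against 8, 1 and 10 in sham. Astrocyte markers had circRNAs in 4 of 5 cases, ependymal and muscle markers in 2 of 3 and 2 of 4, and Schwann cell markers in 1 of 3.

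The long exonic circRNAs spanned 50072 to 99882 bases, with a median of 66786.5 and quartiles of 56969.8 and 79844. No circRNA of any class in the table spanned 100000 bases or more, so the class has a sharp upper edge as well as the lower one set by the choice of members. Nearest inside the lower edge were Ambra1 (50072 bases; 2 reads, both in SCI library 2), Apoo (50081 bases; 1, 1 and 3 reads in SCI, against 0 in sham) and Rundc3b (50105 bases; 3 reads, all in SCI library 2). Nearest outside were Akap7 (49852 bases; 3, 0 and 2 reads in SCI, against 0, 2 and 0 in sham), Ano4 (49813 bases; 4 reads in SCI library 2) and Cdh13 (49806 bases; 2 reads in SCI library 3). Outside the exonic class, spans of 50000 bases or more were held by 349 sense overlapping, 45 intergenic, 16 intronic and 11 antisense circRNAs.

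Most of these wide loops were predicted to be short RNAs. The authors' deposited table gives a predicted circRNA length, and for 548 members it was shorter than the span: 105 to 10896 bases, with a median of 975 and quartiles of 622.5 and 1692. The median predicted length of those members was 1.42% of the span. For 77 members the predicted length equalled the span, which is the length with no intron taken out; 72 of those 77 were assigned to a predicted (XM) transcript, and all 72 members with an XM transcript were among them. Such lengths follow the transcript model and were not measured. Exonic circRNAs under 50000 bases had a median predicted length of 556 bases, counting those shorter than their span. Named after their values were seen, the longest predicted RNAs below the span were from Macf1 (10896 bases) and Pclo (10209 bases). Macf1 encodes a linker of microtubules and actin, and Pclo a giant scaffold of the presynaptic active zone. Each of these circRNAs rested on 2 reads, those of Macf1 in sham library 2 and those of Pclo in SCI library 1.

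**Figure D1:**
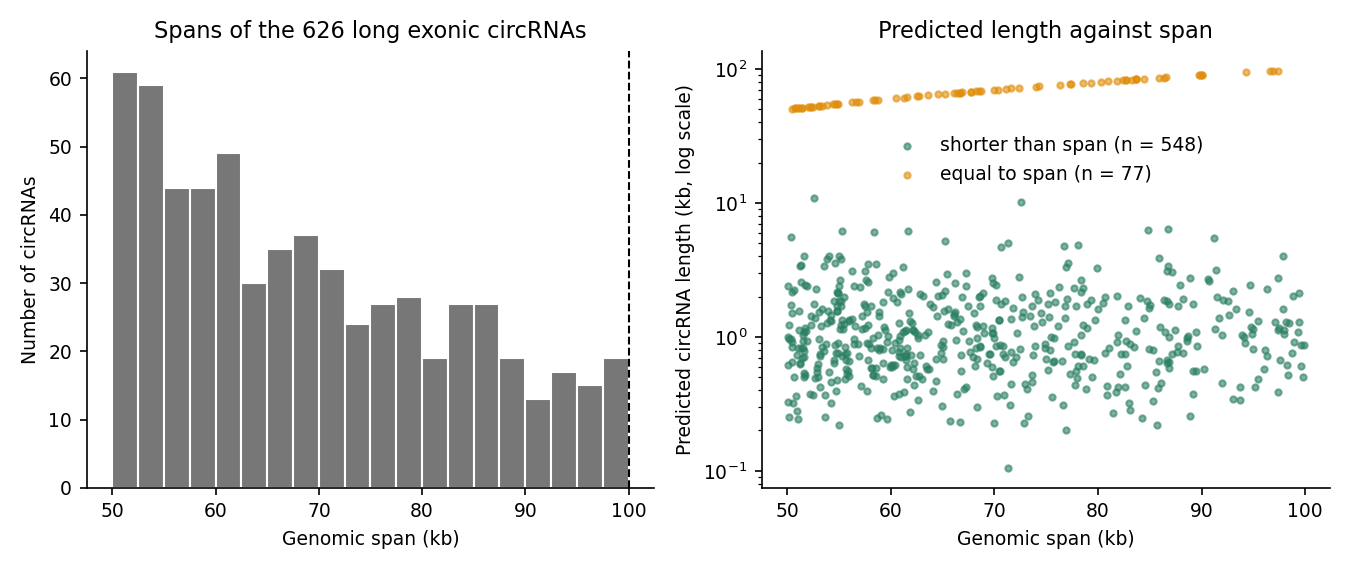
Left, number of long exonic circRNAs by genomic span (kb), with a dashed line at 100 kb where the table ends. Right, the authors' predicted circRNA length (kb, log scale) against span; 548 members fall well below their span and 77 lie exactly on it.

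In the plot of predicted length against span, the 77 members form a line of their own above the other members. Junction ends were often reused. Of the 626 members, 467 (74.6%) shared at least 1 end with another circRNA of the table, and 189 (30.2%) shared both, against 3277 (51.7%) and 727 (11.5%) of the shorter exonic circRNAs. An end was shared with another member in 223 cases and with a non-member in 427. The members lay on the plus strand in 327 cases and on the minus strand in 299. A circBase identifier was given for 292 members (46.6%; 51.9% of shorter exonic circRNAs), and these 292 held 2880 of the members' 4058 reads.

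Long exonic circRNAs were thinly read. They held 4.23% of all back-splice reads, 2817 in SCI, against 1241 in sham, with a median of 3 reads per circRNA over the 6 libraries and a mean of 6.48, against a mean of 8.75 for the shorter exonic ones. Reads were found in 1 library alone for 345 members (55.1%; 51.6% of the shorter ones) and in all 6 libraries for 11 (1.76%; 4.16% of the shorter ones). Only 100 members had 10 or more reads, and these held 53.9% of the reads. The 10 most-read members held 669 reads, or 16.5%.

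Their share of the back-splice reads was higher in each of the 3 SCI libraries than in the highest sham library. The share was 4.52%, 4.73% and 4.44% in SCI, against 3.81%, 3.98% and 3.21% in sham, so that the groups did not overlap. The means were 4.56% ± 0.154 in SCI, against 3.66% ± 0.405 in sham (SD, n = 3 each), a difference of 0.899 percentage points. Taken of exonic reads alone, the share was 7.09%, 7.65% and 6.97% in SCI, against 6.24%, 6.58% and 5.38% in sham. No test was run on these sums over chosen members. Without sham library 3 the difference of the first share was 0.670 points, and without the host Rere it was 0.708. Kept to members with a total of 5 or more reads it was 0.527, with shares of 3.23% to 3.30% in SCI and 2.49% to 2.91% in sham.

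Mean shares were higher in SCI in all 4 span ranges of the class, and in 2 of them the groups did not overlap. Members of 50 to 60 kb (208 circRNAs) held 1.52% ± 0.128 of reads in SCI, against 1.12% ± 0.126 in sham, and those of 80 to 100 kb (156 circRNAs) held 1.07% ± 0.0532 in SCI, against 0.803% ± 0.144 in sham; neither range overlapped between groups. At 60 to 70 kb the shares were 1.20% ± 0.0997 in SCI, against 0.967% ± 0.171 in sham, and at 70 to 80 kb 0.777% in SCI, against 0.769% in sham, and both of these ranges overlapped. All exonic circRNAs under 50 kb together held 58.5% in SCI, against 56.7% in sham, with overlap. Among the shorter ranges, only 20 to 30 kb stood without overlap, at 7.76% in SCI, against 7.13% in sham. A higher mean in SCI was not particular to long spans. At 2000 to 10000 bases it was 19.5% in SCI, against 18.9% in sham, and at 10000 to 20000 bases 14.6%, against 13.9%. At 30000 to 50000 bases it was 7.31% in SCI, against 6.93% in sham. Under 2000 bases the mean was lower in SCI, 9.37%, against 9.80% in sham.

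**Figure D2:**
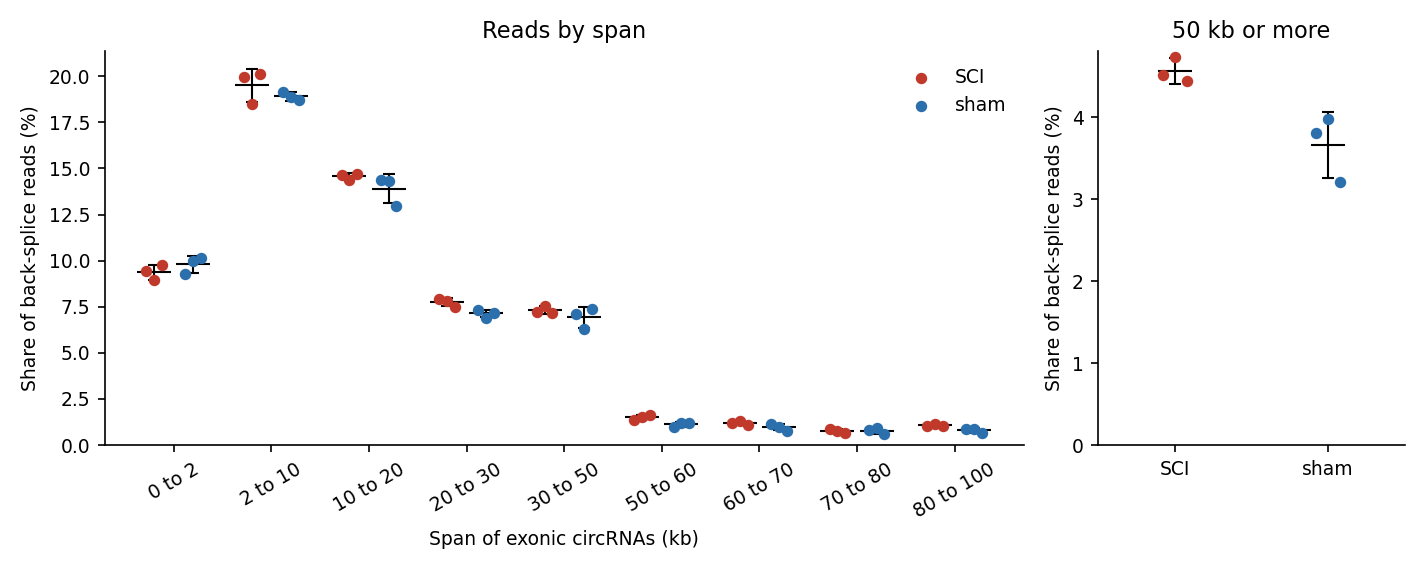
Left, share of each library's back-splice reads (%) from exonic circRNAs by span range (kb), SCI in red and sham in blue; right, the same for all exonic circRNAs of 50 kb or more. Points are libraries, lines are means and bars are SD (n = 3); on the right the 3 SCI libraries (4.44% to 4.73%) lie above the 3 sham libraries (3.21% to 3.98%).

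More members were seen in SCI, also when the libraries were thinned to the same total of back-splice reads. Reads were present for 280, 299 and 262 members in the SCI libraries and 128, 147 and 88 in the sham libraries, which had fewer reads in all. Thinned by calculation to 9805 reads per library, the expected numbers were 207, 227 and 204 in SCI, against 125, 147 and 84.9 in sham, or 213 ± 12.8 and 119 ± 31.5 (SD, n = 3 each). Shorter exonic circRNAs had the same order of groups, with 2180 ± 37.5 in SCI, against 1508 ± 262 in sham at that depth. Long members made up 6.06% ± 0.401 of all circRNAs seen in SCI, against 4.80% ± 0.633 in sham after thinning. Without sham library 3 the difference in members seen was 76.7. Thinning does not undo the choice of entries, each of which reached at least 2 reads in some library at full depth. The SCI libraries were the deeper ones, so the thinned numbers are not free of depth. How far this bears on the difference was not tested.

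A total of 344 members (55.0%) had reads in SCI alone, 113 (18.1%) in sham alone and 169 (27.0%) in both; over all circRNAs these shares were 49.2%, 22.0% and 28.8%. The SCI libraries were also the larger ones. Reads in all 3 SCI libraries with 0 in sham were found for 30 members (4.79%), against a background of 2.87% of all circRNAs (318 of 11061). No member had reads in all 3 sham libraries with 0 in SCI, where the background was 0.0633% (7 circRNAs). Of the 30, the most read was a Hecw1 circRNA with 13, 10 and 3 reads in SCI. Named after their values were seen, the next were circRNAs of Akap7 (68612 bases) with 15 reads in SCI, of Cacna2d3 and Stk3 with 12 each, and of Gli3, among those with 11. Akap7 encodes an anchor of protein kinase A, Stk3 a Hippo pathway kinase and Gli3 a transcription factor of hedgehog signalling. Since 0 reads in sham chose these circRNAs, their ratios are not given. The other long circRNA of Akap7, of 61444 bases, had 1, 2 and 1 reads in SCI, against 5, 0 and 6 in sham, and the log2 ratio of the long Akap7 sum was 0.03 (SE 1.10, edgeR adjusted p = 0.995).

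Few members had enough reads for a test of each circRNA. The edgeR quasi-likelihood test covered 484 circRNAs of all classes, and 20 of them were long exonic ones (3.19% of the 626, against 4.89% of the shorter exonic ones), so 606 members were not tested. A member could be among the 20 through high counts in 1 group. No tested member passed an adjusted p of 0.05: 0 were higher in SCI (background 0%) and 0 were lower (background 0.207%, 1 of 484). At an unadjusted p under 0.05 there was 1 member, Hecw1, against a background of 6.2%. DESeq2 and limma-voom also called 0 members. The log2 ratio was above 0 for 15 of the 20 with a median of 0.66, beside 272 of 484 and a median of 0.09 over all circRNAs tested. With other scalings (RLE or library totals) 13 of 20 were above 0. With limma-voom 17 were above 0 and with no filter on low counts 18, settings that also raised the median over all circRNAs tested. Groups did not overlap for 1 member higher in SCI (background 10.5%), an Atrnl1 circRNA, and 1 lower (background 4.75%), Hecw1. The Atrnl1 circRNA entered the test through its SCI libraries alone, and the sham libraries of Hecw1 sufficed for its entry. Such entry favours a lack of overlap, so neither lack of overlap counts as support for a change. The Atrnl1 circRNA, of 81015 bases (chromosome 1, 285948090 to 286029104, plus strand), had 8, 10 and 8 reads in SCI, against 3, 2 and 0 in sham, and a log2 ratio of 1.40 (SE 1.08, edgeR adjusted p = 0.944; 0.91 without sham library 3).

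**Figure D3:**
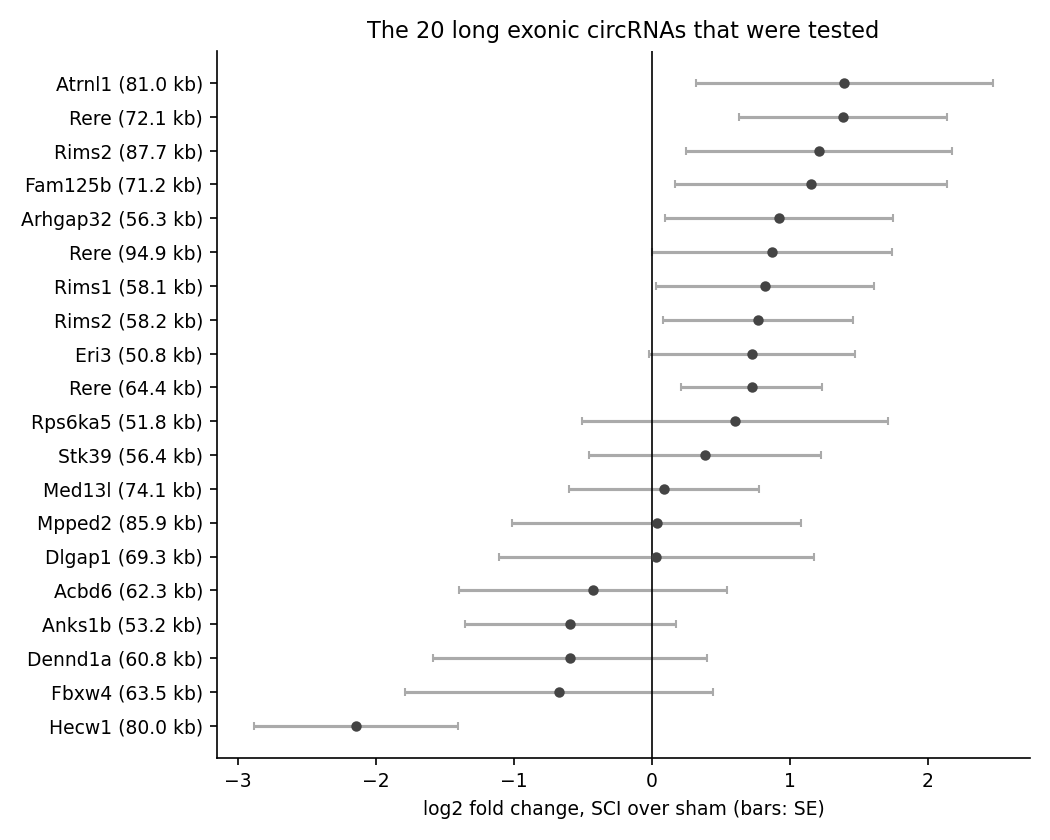
Log2 fold change (SCI over sham, edgeR) of the 20 tested long exonic circRNAs, with the standard error as bars, named by host and span in kb. Hecw1 (80.0 kb) lies lowest at -2.14, and 15 of the 20 points lie right of 0; none passed the adjusted threshold.

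Hosts that act on chromatin and transcription carried the most reads of the 9 function groups. They comprised 19 hosts and 30 long circRNAs with 365 reads in SCI, against 117 in sham, and a mean share of the library's back-splice reads of 0.591% ± 0.113 in SCI, against 0.354% ± 0.157 in sham, with overlap. Of these 30 circRNAs 4 were tested, 0 passed and 4 had a log2 ratio above 0. Rere, an atrophin-family corepressor that acts with nuclear receptors and histone deacetylases, supplied the most-read member of the class. This 64402-base circRNA (chromosome 5, 171145662 to 171210063, plus strand, predicted length 681 bases) had 40, 25 and 40 reads in SCI, against 7, 19 and 7 in sham. Scaled, these were 18.8, 11.99 and 20.4 per 10000 in SCI, against 6.02, 19.4 and 5.50 in sham. Sham library 2 lay inside the SCI range, so the groups overlapped, and the log2 ratio was 0.72 (SE 0.51, edgeR adjusted p = 0.944).

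Rere had 8 long circRNAs in all, made from 4 starts and 4 ends, of 54812 to 98758 bases and with predicted lengths of 478 to 807. The 72097-base circRNA (171115143 to 171187239) had 24, 7 and 19 reads in SCI, against 4, 3 and 3 in sham, a log2 ratio of 1.39 (SE 0.75, edgeR adjusted p = 0.772). The 94921-base circRNA joined the same start to the end of the most-read one and had 18, 11 and 14 reads in SCI, against 7, 5 and 0 in sham, at 0.87 (SE 0.87, edgeR adjusted p = 0.944; 0.40 without sham library 3). The 98758-base circRNA, among the 5 longest with 10 or more reads, had 5, 4 and 4 reads in SCI, against 2, 0 and 0 in sham. It passed the limit of 10 reads through its SCI reads, so no ratio is given. Summed, the long Rere circRNAs had 96, 53 and 88 reads in SCI, against 21, 28 and 15 in sham, or 38.5 ± 11.3 and 19.5 ± 8.47 per 10000 (SD, n = 3 each). The other 15 sense circRNAs of Rere had 85, 50 and 74 reads in SCI, against 31, 34 and 57 in sham. The log2 ratio was 1.01 (SE 0.36, unadjusted p = 0.0133, adjusted p = 0.611, edgeR) for the long sum and -0.05 (SE 0.30) for the others; the difference between them was not tested.

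Med13l, a subunit of the Mediator kinase module, had 1 long circRNA of 74055 bases (chromosome 12, 45338581 to 45412635, minus strand). It had 21, 16 and 10 reads in SCI, against 2, 13 and 8 in sham, with overlap and a log2 ratio of 0.09 (SE 0.69, edgeR adjusted p = 0.996) that was below 0 when SCI library 1 or sham library 1 was left out. Arid1b, a subunit of BAF chromatin remodelling complexes, had 10, 5 and 3 long reads in SCI, against 0, 2 and 6 in sham. Ash1l, a histone methyltransferase, had 4, 7 and 5 long reads in SCI, against 0, 1 and 0 in sham, from 2 circRNAs that were too thinly read to test.

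Synaptic release and scaffold hosts came next, with 18 hosts and 40 long circRNAs. They held 281 reads in SCI, against 126 in sham, a mean share of 0.456% ± 0.0605 in SCI, against 0.364% ± 0.0684 in sham, with overlap; 5 circRNAs were tested, 0 passed and 4 were above 0. Rims2, an active zone protein that tethers vesicles and calcium channels, had 9 long circRNAs, more than any other host, and 5 of them shared 1 end. On that end lay the 58239-base circRNA (chromosome 7, 77727957 to 77786195, minus strand, predicted length 516 bases), with 14, 21 and 21 reads in SCI, against 5, 10 and 2 in sham. Its log2 ratio was 0.77 (SE 0.69, edgeR adjusted p = 0.944; 0.44 without sham library 3), and the scaled values overlapped at sham library 2. The 87700-base circRNA on the same end had 9, 6 and 23 reads in SCI, against 0, 3 and 6 in sham, at 1.21 (SE 0.96, edgeR adjusted p = 0.944); the ratio was 0.46 without SCI library 3 and 2.16 without sham library 3. A different pair of Rims2 circRNAs, which share the junction position 77901177, had 1, 0 and 1 and 0, 3 and 0 reads in SCI, against 7 and 4 reads in sham library 3 and 0 in the other sham libraries.

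The long circRNAs of Rims2 summed to 28, 40 and 49 reads in SCI, against 8, 16 and 19 in sham, a log2 ratio of 0.61 (SE 0.42, edgeR adjusted p = 0.930). They made up 71.7% of the host's sense reads. Rims1, its paralogue, had 18, 15 and 17 long reads in SCI, against 8, 4 and 8 in sham, from 5 circRNAs. Its most-read one (58067 bases, chromosome 9, 27394089 to 27452155, minus strand) had 15, 7 and 14 reads in SCI, against 3, 2 and 6 in sham, at 0.82 (SE 0.79). Anks1b, a protein of the postsynaptic density, ran the other way, with 17, 6 and 6 reads in SCI, against 8, 2 and 14 in sham at -0.59 (SE 0.77), and its sign turned when sham library 3 was left out (0.10). Dlgap1, a scaffold beneath postsynaptic glutamate receptors, had 9, 2 and 5 reads in SCI, against 4, 4 and 0 in sham.

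**Figure D4:**
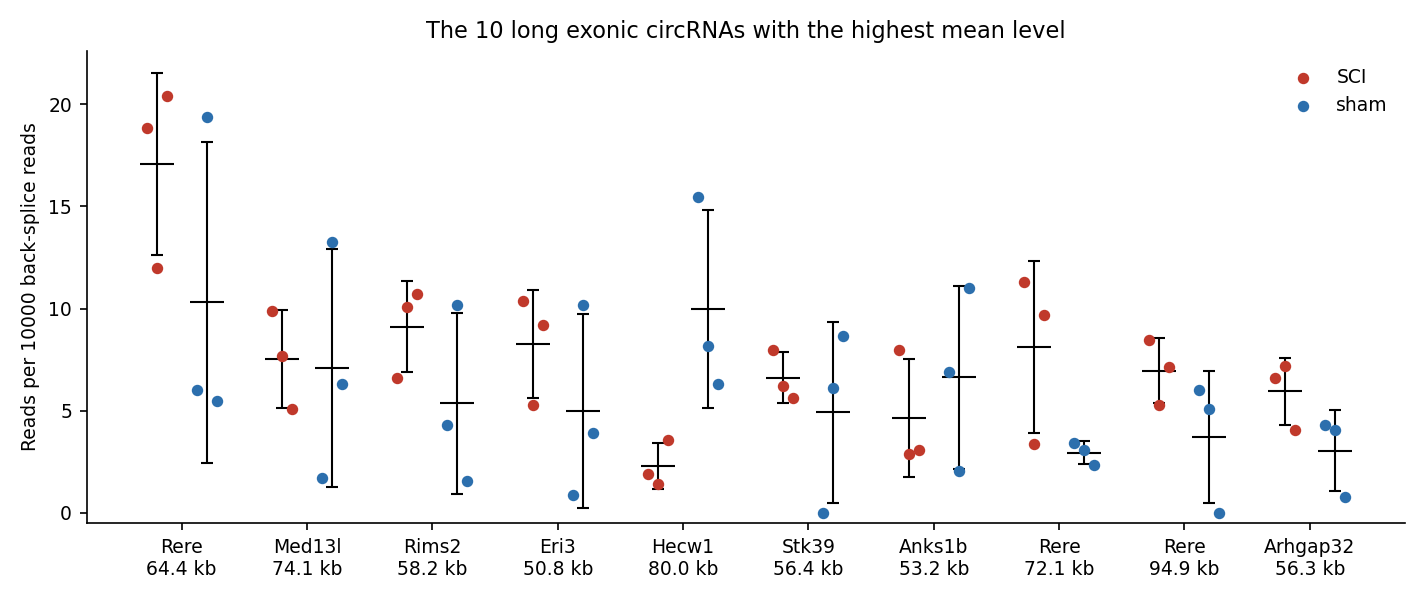
Reads per 10000 back-splice reads of the 10 long exonic circRNAs with the highest mean level, SCI in red left of sham in blue; points are libraries, lines means and bars SD (n = 3). Hecw1 (80.0 kb) is the one with all 3 SCI libraries below all 3 sham libraries; the groups overlap for the other 9, such as Rere at 64.4 kb.

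Ubiquitin and trafficking hosts (21 hosts, 35 long circRNAs, 141 reads in SCI, against 100 in sham) had 2 tested circRNAs, both below 0 and neither passing. Hecw1, a HECT-type ubiquitin ligase of neurons, had the smallest unadjusted p of the class. Its 80036-base circRNA (chromosome 17, 51180482 to 51260517, plus strand, predicted length 1621 bases) had 4, 3 and 7 reads in SCI, against 18, 8 and 8 in sham. The groups did not overlap, and the log2 ratio was -2.14 (SE 0.74, unadjusted p = 0.0105, adjusted p = 0.719, edgeR). Over the alternative settings the ratio ranged between -2.54 and -1.49, and the adjusted p between 0.190 and 0.999.

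Other Hecw1 circRNAs that close on the same end point had reads in SCI alone. The 61407-base one (start 51199111) had 13, 10 and 3 reads in SCI and 0 in all sham libraries. Those of 87154 and 74539 bases had 1, 3 and 2 and 3, 1 and 1 reads in SCI, against 0 in sham. The remaining one, which shares the start of the 80036-base circRNA, had 0, 2 and 1 reads in SCI, against 0, 0 and 7 in sham. Together the 5 long circRNAs of Hecw1 had 21, 19 and 14 reads in SCI, against 18, 8 and 15 in sham, and the log2 ratio of the sum was -0.43 (SE 0.45, edgeR adjusted p = 0.995). The host total thus overlapped between groups, while the 80036-base circRNA did not, where the background was 4.75% lower in SCI. The sham counts of the 80036-base circRNA sufficed for its entry into the test, which favours such a lack of overlap. The 61407-base circRNA was not tested. It is among the 30 members chosen by 0 reads in sham, which fixed its lack of overlap. Fbxw4, an F-box protein, had 9, 7 and 2 reads in SCI, against 14, 1 and 0 in sham, with sham library 1 highest. Nbas, which acts in Golgi-to-ER transport, and Sorcs3, a sorting receptor, had 13 long reads each.

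Ion channel and transporter hosts held few reads. Their 28 hosts and 53 circRNAs had 161 reads in SCI, against 50 in sham, and shares of 0.193%, 0.326% and 0.265% in SCI, against 0.103%, 0.184% and 0.157% in sham. These shares did not overlap, but without the host Ano4, which also leads the oligodendrocyte group, they were 0.141%, 0.307% and 0.184% in SCI, against 0.103%, 0.163% and 0.157% in sham, and overlapped. None of the 53 had enough reads for the test. Ano4, a member of the anoctamin family of channels and scramblases, had 11, 4 and 16 long reads in SCI, against 0, 2 and 0 in sham. Its 99636-base circRNA (chromosome 7, 29705223 to 29804858, minus strand) was the longest with 10 or more reads and had 3, 4 and 10 in SCI, against 0, 1 and 0 in sham. It passed the limit of 10 reads through its SCI reads, so no ratio is given. The other 5 sense circRNAs of Ano4 had 43, 44 and 36 reads in SCI, against 22, 20 and 28 in sham, a log2 ratio of -0.03 (SE 0.31, edgeR adjusted p = 0.995).

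Kcnma1, the pore subunit of the BK potassium channel, had 1, 15 and 2 long reads in SCI, against 0, 0 and 6 in sham, so SCI library 2 carried most of them. Cacna2d3, an auxiliary calcium channel subunit, had a 50965-base circRNA with 4, 1 and 7 reads in SCI, against 0 in sham, and a 58533-base circRNA with 0 in SCI, against 7 reads in sham library 3. Atp9b, a P4-type ATPase, had 2, 7 and 1 long reads in SCI, against 3, 1 and 3 in sham over 5 circRNAs.

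Adhesion and guidance receptors had the most hosts of the function groups, 33, with 57 long circRNAs. They had 199 reads in SCI, against 95 in sham and mean shares of 0.324% ± 0.0468 in SCI, against 0.273% ± 0.0642 in sham, and none of the 57 could be tested singly. Their 3 tested host sums were Bai3 at 0.03 (SE 1.02), Lrp1b at -0.27 (SE 0.86) and Ptprd at -0.01 (SE 1.08), none of which passed. Bai3 (now Adgrb3), an adhesion receptor that binds C1q-like proteins, had 4, 8 and 11 long reads in SCI, against 4, 8 and 0 in sham. Left out of this sum is a long circRNA listed as Adgrb3, with 0, 2 and 0 reads in SCI, against 0 in sham. Lrp1b, of the LDL receptor family, had 5, 5 and 10 in SCI, against 6, 2 and 6 in sham from 6 circRNAs. Ptprd, a synaptic receptor phosphatase, had 7, 1 and 7 in SCI, against 1, 0 and 8 in sham. Lphn2, a latrophilin, had 5, 12 and 2 reads in SCI, against 0, 1 and 5 in sham from 1 circRNA. Another long circRNA, listed under the current symbol Adgrl2, had 2, 1 and 6 reads in SCI, against 0 in sham.

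Kinase, phosphatase and messenger enzyme hosts had 144 long reads in SCI, against 56 in sham over 22 hosts and 30 circRNAs, with 1 tested and 0 passing. Stk39, the SPAK kinase of cation-chloride cotransporters, had a 56416-base circRNA (chromosome 3, 61125640 to 61182055, minus strand) with 17, 13 and 11 reads in SCI, against 0, 6 and 11 in sham, at 0.38 (SE 0.84); without sham library 1 the ratio was -0.04. A 98363-base Stk39 circRNA, among the 5 longest with 10 or more reads, had 2, 2 and 2 reads in SCI, against 0, 4 and 1 in sham. Ntrk3, the receptor of neurotrophin-3, had a 97955-base circRNA with 6, 5 and 1 reads in SCI, against 2, 0 and 3 in sham. Mapkap1, a subunit of mTOR complex 2, had 3, 10 and 2 in SCI, against 0, 1 and 0 in sham. All 8 sham reads of Dgkb, a diacylglycerol kinase, came from sham library 3, beside 2, 1 and 2 reads in SCI.

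Small GTPase regulators (18 hosts, 35 circRNAs) had 188 reads in SCI, against 103 in sham, and mean shares that lay close together, 0.303% ± 0.0978 in SCI, against 0.314% ± 0.147 in sham. Of 2 tested circRNAs 1 was above 0 and 0 passed. Arhgap32, a GTPase-activating protein, had a 56290-base circRNA with 14, 15 and 8 reads in SCI, against 5, 4 and 1 in sham, at 0.92 (SE 0.83). Dennd1b and Dennd1a, exchange factors for Rab35, had long sums of 13, 12 and 5 and of 5, 10 and 4 reads in SCI, and of 14, 9 and 1 and of 0, 4 and 12 in sham. Prex2, an exchange factor for Rac, had 6, 10 and 1 reads in SCI, against 1, 15 and 0 in sham.

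RNA-binding hosts were few, with 9 hosts and 14 circRNAs, 62 reads in SCI, against 22 in sham. Cpeb3, which binds polyadenylation elements and controls translation in neurons, had 14, 7 and 11 long reads in SCI, against 5, 0 and 0 in sham. A pair of its 3 circRNAs had 11 reads each in SCI, against 0 in sham. Its other 8 circRNAs had a log2 ratio of 0.12 (SE 0.46), and that of its long sum was 1.78 (SE 1.15, edgeR adjusted p = 0.930). The difference between them was not tested. The long sum entered the test mainly through its SCI libraries, which favours a ratio above 0. All 5 sham reads came from sham library 1; the sum is at 0 in sham without it, and the ratio was 1.27 without sham library 3. Rbm6 had 6 in SCI library 2 and 0, 2 and 3 in sham, and Rbfox1, a neuronal splicing factor, had 3, 2 and 0 in SCI, against 0, 0 and 2 in sham. None of the 14 was tested singly.

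Cytoskeleton and motor hosts (13 hosts, 18 circRNAs) had the fewest reads, 28 in SCI, against 29 in sham, and were not tested singly. Their mean shares were 0.0449% ± 0.0223 in SCI, against 0.0877% ± 0.0583 in sham, with overlap. Agtpbp1, a tubulin deglutamylase, had 5 long circRNAs with 5, 0 and 0 reads in SCI, against 5, 2 and 3 in sham, while its other 12 sense circRNAs had 46, 49 and 42 reads in SCI, against 22, 26 and 35 in sham. Specc1l, a linker of microtubules and actin, had 0, 4 and 2 long reads in SCI, against 0, 1 and 0 in sham, Kif6, a kinesin, had 4, 1 and 1 in SCI, against 0 in sham, and Myo9a, an unconventional myosin, had 2, 0 and 0 in SCI, against 3, 0 and 0 in sham. The remaining 224 hosts, in no function group, held 314 of the circRNAs with 1248 reads in SCI, against 543 in sham.

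The members with a symbol came from 405 host symbols, which are 398 after synonyms were merged, and 281 symbols had a single long circRNA. At least 5 were found for 14 hosts, and 29 hosts had no other circRNA in the table. Over all these hosts the long circRNAs supplied 19.3% of the sense reads, 4036 against 16843 from other circRNAs, with a median of 22.2% per host. That percentage was 71.7% in Rims2, 47.6% in Rere and 6.38% in Agtpbp1.

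Summing the long circRNAs of a host brought 27 hosts into the test among 647 sums, and 378 hosts were not tested. A sum, like a single circRNA, could enter the test through high counts in 1 group. No long sum passed the edgeR test: 0 were higher and 0 lower in SCI (background 0.155% in each direction), with 1 at an unadjusted p under 0.05, Rere, against a background of 5.26%. DESeq2 and limma-voom called 0 as well. Of the 27, 19 had a log2 ratio above 0, and the median was 0.14 beside 0.12 over all sums. With RLE scaling 14 were above 0 and with library totals 16. With limma-voom 23 were above 0 and with no filter on low counts 21, settings that also raised the median over all sums. Groups did not overlap for 1 sum higher in SCI (background 8.35%), that of Rims1, and 0 lower (background 5.72%). Where the host's other circRNAs were also tested, which held for 22 hosts, both classes had the same sign in 12. Atrnl1, an attractin-like membrane protein, had 25, 29 and 12 long reads in SCI, against 9, 5 and 8 in sham, at 0.73 (SE 0.52, edgeR adjusted p = 0.930), beside 0.39 (SE 0.26) for its other circRNAs. Eri3, an exoribonuclease, had 34, 13 and 26 long reads in SCI, against 5, 11 and 11 in sham, at 0.58 (SE 0.52, edgeR adjusted p = 0.947); its 50762-base circRNA (chromosome 5, 140210128 to 140260889, plus strand) had 22, 11 and 18 reads in SCI, against 1, 10 and 5 in sham. Fam125b (now Mvb12b), a subunit of the ESCRT-I sorting complex, had 6, 12 and 11 in SCI, against 4, 0 and 3 in sham, at 1.23 (SE 1.00, edgeR adjusted p = 0.930). Left out of that sum is a long circRNA listed as Mvb12b, with 1, 2 and 0 reads in SCI, against 0 in sham.

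**Figure D5:**
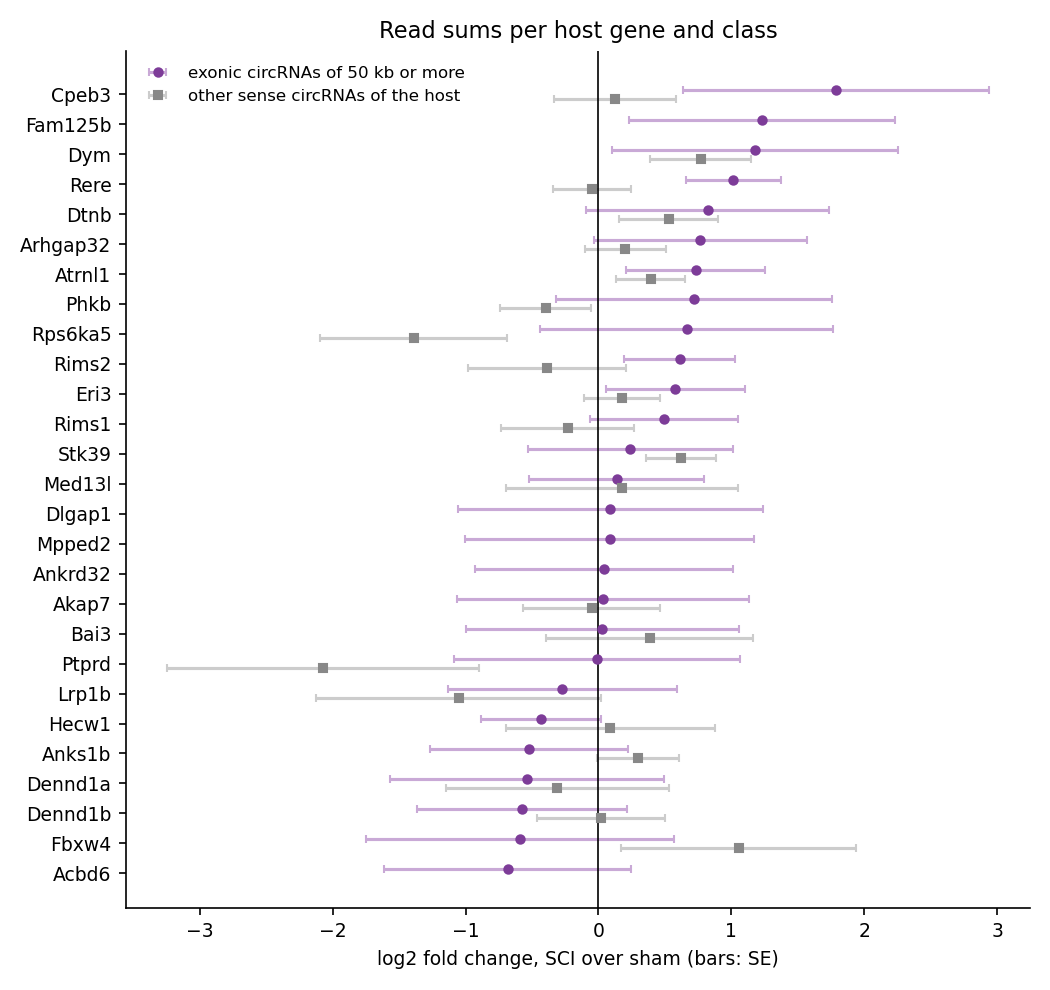
Log2 fold change (SCI over sham, edgeR) of read sums for the 27 tested hosts, with long exonic circRNAs as purple points, the host's other sense circRNAs as grey squares where tested, and standard errors as bars. Rere's long sum lies at 1.01 and its other circRNAs at -0.05; no long sum passed the adjusted threshold.

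The plot of host sums sets the long circRNAs of each tested host beside its other ones. Cell type groups among the long hosts were small. Oligodendrocyte and myelin hosts held 47 reads in SCI, against 11 in sham over 10 circRNAs, led by Ano4. Astrocyte hosts had 38 in SCI, against 16 in sham over 7. Prex2 led them with 6, 10 and 1 reads in SCI, against 1, 15 and 0 in sham, which are all the sham reads of the group; Gli3 had 5, 5 and 1 and Gpc5 had 5, 1 and 0 in SCI, against 0 in sham for both. Endothelial, pericyte and fibroblast hosts had 20 in SCI, against 13 in sham over 7, and no long exonic circRNA came from a microglia or macrophage host. The shares of the first 3 of these groups overlapped between SCI and sham.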

How the data were processed

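The authors deposited whole-number counts of back-splice reads per circRNA in 6 libraries, per the file headers, without normalization; 0 sample columns went unused. Positions, class, host symbol and predicted length are the table's own. Bowtie 0.12.2 and mm8 are listed in the submitters' processing notes; mm8 is a mouse genome, and the samples are rat. The build of the coordinates and the caller of the circRNAs are not named in the sources used here. Coordinates are the deposited ones, counted from 1. Symbols were looked up in the RefSeq gene table of the rat assembly GRCr8, for names only: 354 of 405 host symbols are current, 29 are synonyms and 22 did not match. A host listed under an older and a current symbol stays split.

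Back-splice reads total 9805 to 21255 per library. The reads carry no molecular identifiers. The test was edgeR 4.0.16 (R 4.3.3), quasi-likelihood, on all circRNAs, with TMM scaling, filterByExpr (minimum count 5, minimum total 15), group alone in the model and Benjamini-Hochberg adjustment over all circRNAs tested. A second fit used sums per host of long exonic and of other sense circRNAs. SE was taken as the log2 ratio over the square root of F. The fits were run on simulated counts with known changes: the largest changes were nearly all called, the smallest mostly missed, and no call had the wrong direction. The simulated spread was a fixed setting, not estimated from these libraries, and the changed entries were drawn from the whole set. The run therefore does not give the power of the test for the long members. Alternatives were RLE scaling, library totals, weaker or no filter, DESeq2 1.42.0, limma-voom (limma 3.58.1), a replicate term, a span of 30000 or more, and each library left out. Thinned numbers are hypergeometric expectations at 9805 reads, over entries that reached at least 2 reads in some library at full depth.

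Named circRNAs were the 10 with the highest mean level, the 6 with the smallest unadjusted p, the 5 longest with 10 or more reads, the 3 nearest on each side of the span limit, up to 4 hosts per function list, the 5 hosts with most members and the 6 host sums with the smallest unadjusted p. Others are said to be named after their values were seen, or stand beside these as members of the same host. Of the hosts this rule names, 1 is not reported here. The members, the 9 function and 4 cell type lists and the tests were chosen with earlier results of these data known; lists partly overlap.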

Additional observations from a re-analysis of the deposited data

How the results depend on the processing

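Counts of members passing the edgeR test stayed at 0 in each direction, for single circRNAs and host sums, under every alternative run, leave-one-out fits included, apart from host sums with no filter on low counts: there 1 sum was higher in SCI, that of Rere, with a log2 ratio of 1.36 (adjusted p = 0.0409). That setting moved the median log2 ratio to 0.48 over all sums tested in the main fit. Over all circRNAs tested in the main fit, the same setting moved it to 0.67. With limma-voom these medians were 0.28 for sums and 0.30 for circRNAs. The lead in members seen after thinning, 93.7 more in SCI, was 188 with a span of 30000 or more, 45.0 with a total of 5 or more reads and 58.4 with a circBase identifier (the last, like the sums without Rere, was added after seeing the data); leaving out each library gave 76.7 to 108. The share of reads differed by 0.527 to 1.28 percentage points over these choices and by 0.670 to 1.06 with each library left out; for the share of exonic reads, leaving out each library gave 0.826 to 1.43. The groups did not overlap in any of these. For ion channel and transporter hosts the share difference was 0.113 points and 0.0694 without the host Ano4, a choice added after seeing the data. Of 19 named ratios, 3 changed sign: Med13l (-0.09 without SCI library 1, -0.22 without sham library 1; leave-one-out range -0.22 to 0.95), Stk39 (-0.039 without sham library 1; -0.039 to 1.27) and Anks1b (0.058 with no filter, 0.10 without sham library 3; -1.14 to 0.10). The cause was not tested. Single libraries also moved other ratios: over the leave-one-out fits the 64402-base Rere circRNA ranged over 0.55 to 1.62, the 94921-base one over 0.40 to 1.66, the 58239-base Rims2 circRNA over 0.44 to 1.68, the 87700-base one over 0.46 to 2.16, Atrnl1 (81015 bases) over 0.91 to 2.22, Arhgap32 over 0.58 to 1.46 and Eri3 over 0.38 to 1.81. A span of 100000 or more gave no value. Whether replicate numbers pair the samples was not settled. After group means were removed, same-numbered libraries correlated at 0.103, 0.062 and 0.09 for circRNAs, each SCI library best with its own number. For host sums the values were 0, 0.051 and 0.054, and only SCI library 3 was best with its own number. With the replicate block 0 members passed. Depth is a limit, since 606 of 626 members had too few reads to test, and so are the 3 libraries per group.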
